A study of Mus musculus with 8 samples.

Results

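The 10 genes described here make the enzymes, the chaperone and the processing proteins that act on procollagen between its synthesis and its assembly into fibrils: P4ha1, P4ha2, P4ha3, Plod1, Plod2, Plod3, Serpinh1, Crtap, Pcolce and Bmp1. They were chosen by name, not by level, though with earlier results of these data known. They were found by their Ensembl identifiers among the 30395 genes listed for each library. All 10 passed the filter on low values and were among the 16446 genes tested.

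RNA-seq libraries had been made from 2 kinds of mesenchymal cell of mouse liver, 8 libraries in 4 groups of 2. Gli1+ peribiliary mesenchymal cells, which lie around the bile ducts, and hepatic stellate cells, the vitamin A-storing mesenchyme of the sinusoids, were each taken from uninjured mice and 5 d after BDL (ligation of the bile duct, which blocks bile flow). All mice, controls included, were 8 weeks old, of mixed C57BL/6 and SWR/J strain, with the genotype Gli1:CreER+/-; Ai9+/-. In these animals a tamoxifen-dependent Cre is made from the Gli1 locus and Ai9 is a tdTomato reporter that Cre switches on. The sources used here give no sort gates, no tamoxifen schedule and no number of mice per library. Nothing in the labels says that replicates came from separate animals, so a p-value here covers the spread among libraries alone, and that spread may be technical.

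As background, collagen chains are modified in the endoplasmic reticulum before they leave the cell. Prolyl 4-hydroxylase, a tetramer of catalytic alpha subunits (P4ha1, P4ha2, P4ha3) and protein disulfide isomerase (P4hb), makes the hydroxyproline that holds the triple helix together at body temperature, and the lysyl hydroxylases (Plod1, Plod2, Plod3) make the hydroxylysine used for crosslinks and sugar attachment. Serpinh1 (HSP47) is the chaperone that binds the folded procollagen helix, Crtap is a subunit of the prolyl 3-hydroxylase complex, and outside the cell Bmp1 cuts off the carboxy-terminal propeptide with the help of Pcolce. In the liver these steps supply the fibrillar collagen laid down around portal tracts after bile duct injury.

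All but Plod2 and Bmp1, 8 of the 10 genes, matched a promoter window in the RefSeq table (GRCm38.p6), which runs from 250 bases before to 50 bases after the start of each gene. The 250 bases before the start are shown for 6 of them, 5′ to 3′ on the strand of the gene. The start is that of RefSeq. For P4ha2 and Pcolce it lies inside the span of the gene given below, which is from GENCODE. Plod1 and P4ha3 are shown because they passed the test between the cell types in uninjured liver. P4ha1, P4ha2, Serpinh1 and Plod3 are shown because they hold ACGTG, a form of the core of the element bound by hypoxia-inducible factors. P4ha1 and P4ha2 are known targets of these factors. Capitals mark ACGTG on either strand (CACGT is the same motif on the other strand, and CACGTG would match on both).
P4ha1 (chr10:59323046-59323295, plus strand): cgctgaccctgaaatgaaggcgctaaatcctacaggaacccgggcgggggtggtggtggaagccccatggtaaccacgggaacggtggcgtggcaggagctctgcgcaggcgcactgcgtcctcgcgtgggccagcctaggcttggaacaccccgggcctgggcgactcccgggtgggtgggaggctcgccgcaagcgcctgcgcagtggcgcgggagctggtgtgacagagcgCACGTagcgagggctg
P4ha2 (chr11:54100674-54100923, plus strand): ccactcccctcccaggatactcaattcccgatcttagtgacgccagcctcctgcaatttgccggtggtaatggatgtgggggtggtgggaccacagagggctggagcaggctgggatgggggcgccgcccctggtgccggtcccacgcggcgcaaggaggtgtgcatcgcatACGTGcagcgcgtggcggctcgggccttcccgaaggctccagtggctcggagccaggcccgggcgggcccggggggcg
Serpinh1 (chr7:99353240-99353489, minus strand): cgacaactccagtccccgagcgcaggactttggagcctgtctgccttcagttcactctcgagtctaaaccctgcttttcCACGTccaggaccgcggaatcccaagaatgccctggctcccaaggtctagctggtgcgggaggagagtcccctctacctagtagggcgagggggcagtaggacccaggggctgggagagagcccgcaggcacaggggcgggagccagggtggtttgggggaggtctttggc
Plod3 (chr5:136986769-136987018, plus strand): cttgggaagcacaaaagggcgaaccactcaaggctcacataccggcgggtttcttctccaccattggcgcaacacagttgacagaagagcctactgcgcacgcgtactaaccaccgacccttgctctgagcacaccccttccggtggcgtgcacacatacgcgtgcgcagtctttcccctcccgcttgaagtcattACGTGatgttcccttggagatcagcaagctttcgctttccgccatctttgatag
Plod1 (chr4:147936777-147937026, minus strand): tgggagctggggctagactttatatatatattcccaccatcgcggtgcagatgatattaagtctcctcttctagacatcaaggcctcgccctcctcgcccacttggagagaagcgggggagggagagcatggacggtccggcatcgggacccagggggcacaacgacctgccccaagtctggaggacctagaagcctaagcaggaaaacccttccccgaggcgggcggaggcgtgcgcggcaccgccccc
P4ha3 (chr7:100285270-100285519, plus strand): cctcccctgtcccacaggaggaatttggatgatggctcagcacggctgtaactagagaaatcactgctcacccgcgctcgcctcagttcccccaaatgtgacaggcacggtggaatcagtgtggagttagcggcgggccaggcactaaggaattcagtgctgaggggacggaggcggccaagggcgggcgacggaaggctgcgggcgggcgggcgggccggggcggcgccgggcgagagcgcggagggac
In the 300-base windows, ACGTG was found 1 time in P4ha1, starting 16 bases before the start, 1 time in Serpinh1, 171 bases before the start, 1 time in Plod3, 54 bases before the start, and 2 times in P4ha2. The first match in P4ha2 is the one marked, and the other lies after the start. ACGTG was not found in the windows of Plod1, P4ha3, Pcolce and Crtap, while 19.6% of the 32851 windows in the table hold it. Other forms of the core were not searched for, so these windows may hold them. The palindrome GAANNTTC, part of the heat shock element, had 1 match in Plod1 and none in Serpinh1, against 7.9% of all windows. The GC content of the 8 windows ran from 53.3% in Plod3 to 70.3% in P4ha1 and P4ha2, and the median over the table was 52.7%. A match describes these letters and shows no binding.

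Library totals ran from 11261775 to 19180370 reads, so that 3 reads correspond to 0.156 to 0.266 CPM (reads per 1000000 reads of the library). The labelled cell types could be checked against their markers. Gli1 was at 14.9 and 7.59 CPM in the uninjured and 6.61 and 2.40 CPM in the BDL Gli1+ libraries, and at 0 in 3 stellate libraries and 0.0584 CPM in the other. All 12 stellate markers, Lrat and Reln among them, were lower in Gli1+ cells in both states, and summed to 905 to 1976 CPM there against 24420 to 70058 CPM in stellate cells. Markers of other cells also differed: the 12 cholangiocyte markers summed to 3744 to 18127 CPM in Gli1+ libraries and 4.54 to 780 CPM in stellate libraries, with Cldn4 at 0 in all 4 of the latter, and the 10 mesothelial markers summed to 3439 to 11483 CPM against 4.71 to 10.1 CPM. Krt19 is in both lists and counts in both sums. It was the highest mesothelial marker in every Gli1+ library but uninjured replicate 2, where Msln was. Several sums also differed between the states. The hepatocyte markers summed to 90.9 to 1192 CPM in the uninjured and 2026 to 19596 CPM in the BDL libraries. In Gli1+ cells the 12 portal fibroblast markers summed to 11670 and 8779 CPM in uninjured and 4329 and 3852 CPM in BDL libraries, and the cholangiocyte markers to 4933 and 3744 CPM in uninjured and 18127 and 8537 CPM in BDL libraries. The sum over the 12 endothelial markers in stellate cells was 684 and 181 CPM without injury and 2431 and 1761 CPM after BDL. The 2 uninjured stellate libraries stood apart from each other: the 12 macrophage markers summed to 11353 CPM in replicate 1 and 60.3 CPM in replicate 2, where Ptprc and Timd4 were at 0. The part of these cells in the differences below was not tested. Several of the counts and calls that rest on the uninjured stellate libraries are given with and without replicate 1. Counts of genes without overlap are given for all libraries only. In bulk RNA, fewer cells of a type and less RNA per cell cannot be told apart.

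Levels of different genes were compared per kilobase of merged exons. Serpinh1 ranked first of the 10 in 3 groups, at 292 CPM per kb in uninjured Gli1+ cells, 110 in Gli1+ cells after BDL and 444 in uninjured stellate cells. In stellate cells after BDL Pcolce ranked first, at 252 CPM per kb, with Serpinh1 second at 149. Crtap had rank 3 in every group, between 75.7 and 102 CPM per kb. P4ha2 and P4ha3 took the last 2 places in all 4 groups, with P4ha2 between 4.36 and 6.05 CPM per kb. The middle ranks depended on the cell type: Plod2 had rank 5 in uninjured and 4 in BDL Gli1+ cells and rank 7 in stellate cells, and Plod1 had rank 8 in Gli1+ and 5 in stellate cells.

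**Figure D1:**
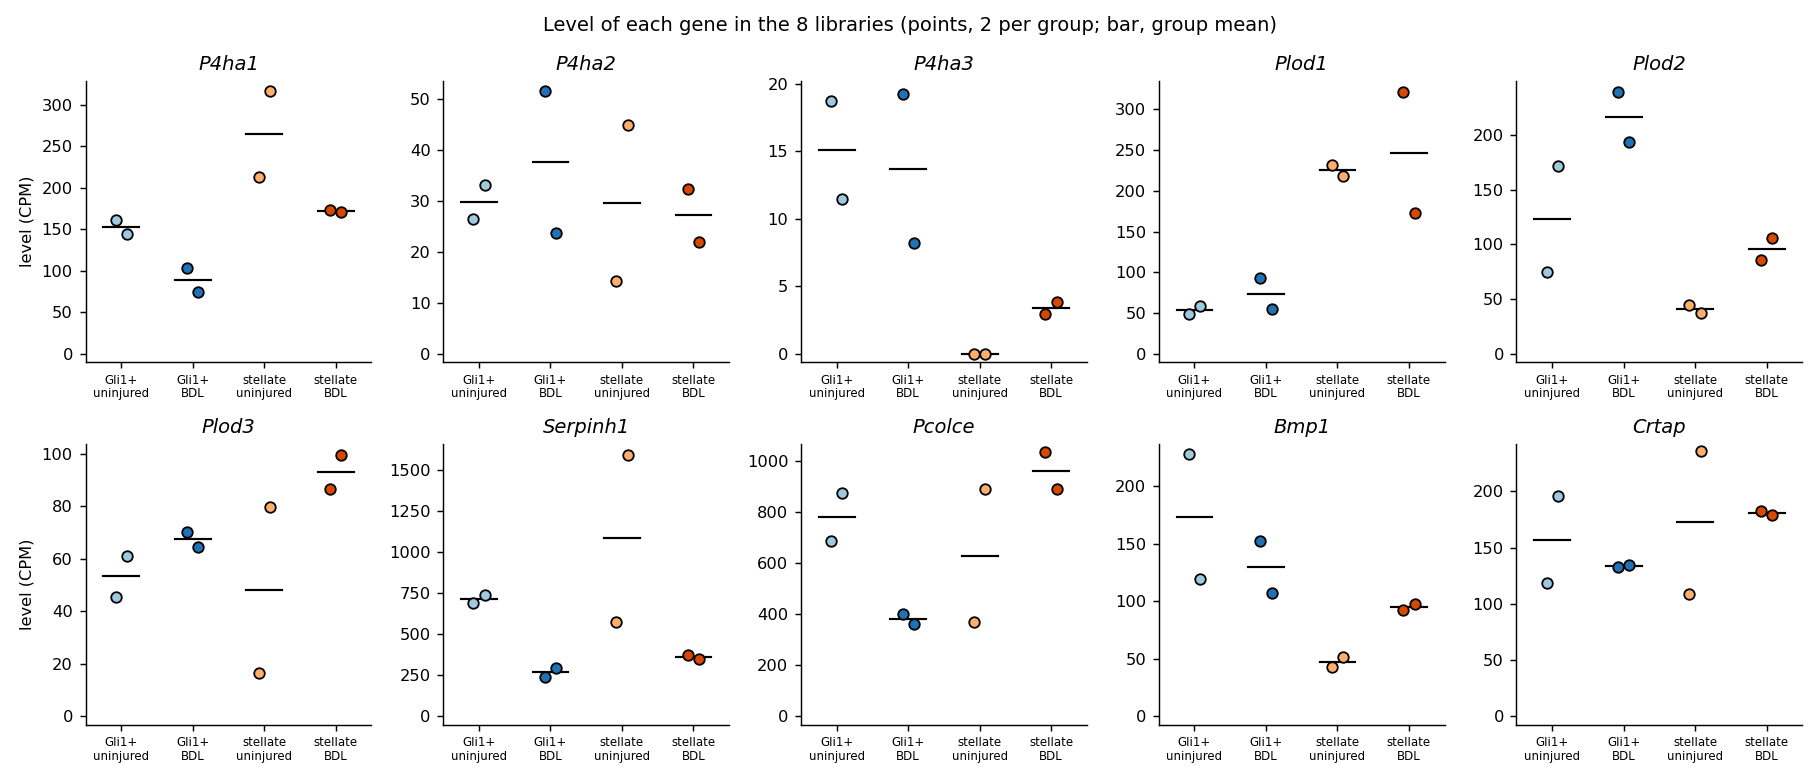
Level of each of the 10 genes in CPM (vertical axes, separate scales) in the 8 libraries, grouped by cell type and state; points are libraries and bars are group means. The 4 stellate libraries lie above the 4 Gli1+ libraries for Plod1 and below them for P4ha3 and Bmp1, and both BDL groups lie below their uninjured groups for Serpinh1.

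In uninjured liver, Gli1+ cells differed from stellate cells in 3 of the 10 genes by limma (Benjamini-Hochberg adjusted p under 0.05 over all genes): P4ha3 and Bmp1 were higher and Plod1 was lower. Over all genes 11.1% passed, 8.06% higher and 3.02% lower in Gli1+ cells. The libraries of the 2 groups did not overlap for 5 of the 10 genes, P4ha3, Plod2 and Bmp1 higher and P4ha1 and Plod1 lower, against 45.7% of all genes (31.1% higher, 14.6% lower). The median log2 fold change of the 10 genes was 0.32, the same as the median of all genes, which was 0.14 under TMM scaling. Without replicate 1 of the uninjured stellate cells 2 of the 10 passed, P4ha3 and Plod1, with 1808 genes in all.

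After BDL, 1 of the 10 genes passed, Plod1, which was again lower in Gli1+ cells, against 6.80% of all genes, 4.44% higher and 2.36% lower. The libraries did not overlap for 9 of the 10 genes, against 53.9% of all genes (34.8% higher, 19.0% lower): P4ha3, Plod2 and Bmp1 were higher and P4ha1, Plod1, Plod3, Serpinh1, Pcolce and Crtap lower. The median log2 fold change of the 10 genes was −0.43 and that of all genes 0.23. The comparisons between cell types in the 2 states share no library. Replicate 1 of the uninjured stellate cells enters only through the shared spread. Without it the log2 fold change stayed at −1.71 for Plod1 and −1.33 for Pcolce.

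Within a cell type, none of the 10 genes passed. In Gli1+ cells BDL changed 0 of all genes by limma (0% called), with 1812 genes, 3 of the 10 among them, at an unadjusted p under 0.05. The count was also 0 by edgeR, and by DESeq2 it was 412, with 0 of the 10 genes. The Gli1+ libraries did not overlap for 5 of the 10, Plod2 and Plod3 higher and P4ha1, Serpinh1 and Pcolce lower after BDL, against 41.3% of all genes (25.1% higher, 16.2% lower). In stellate cells 37 genes rose (0.225% called) and none fell by limma, with 1968 genes and 4 of the 10 at an unadjusted p under 0.05. There edgeR called 62 genes and 0 of the 10, and DESeq2 called 1023 genes and 2 of the 10, Serpinh1 and P4ha3. Stellate libraries did not overlap for 7 of the 10, P4ha3, Plod2, Plod3, Pcolce and Bmp1 higher and P4ha1 and Serpinh1 lower, against 39.6% of all genes (27.4% higher, 12.2% lower). For Pcolce the nearest libraries were almost equal, at 892 CPM after BDL and 890 CPM without injury. When replicate 1 of the uninjured stellate cells was left out, 219 genes passed, Serpinh1 among them. The part of the portal fibroblast, cholangiocyte, endothelial and hepatocyte markers that moved between the same libraries was not tested. Each BDL comparison shares its libraries with the comparisons between cell types, so the values are given side by side.

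**Figure D2:**
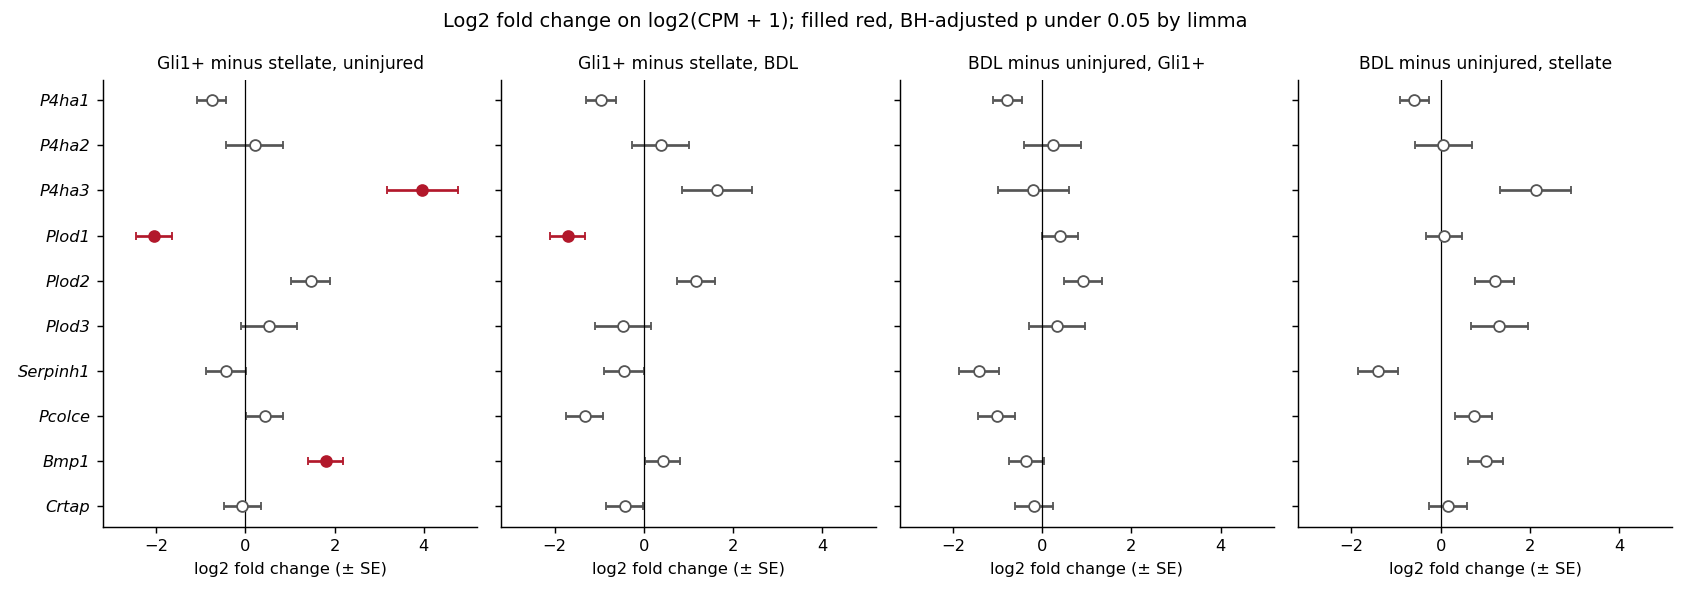
Log2 fold change of each gene on the log2(CPM + 1) scale (horizontal axis, bars are ± 1 SE from limma) in the 4 comparisons; filled red points passed the threshold. P4ha3, Bmp1 and Plod1 passed between the cell types in uninjured liver, Plod1 after BDL, and none of the 10 within a cell type.

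Among the prolyl 4-hydroxylase alpha subunits, P4ha3 was higher in Gli1+ cells in uninjured liver, and P4ha1 and P4ha2 did not pass in any comparison. P4ha3 (ENSMUSG00000051048.17, chr7:100285520-100319699, plus strand, mm10) encodes another catalytic alpha subunit. It was at 18.7 and 11.5 CPM in uninjured Gli1+ libraries (211 and 201 reads) and at 19.3 and 8.20 CPM after BDL. No read was counted in the uninjured stellate libraries, which allows up to 0.183 and 0.156 CPM (3 reads, counting error only), while the BDL stellate libraries had 2.98 and 3.82 CPM (51 and 45 reads). All Gli1+ libraries were therefore above all stellate libraries. Against a floor of 3 reads over the uninjured stellate group, 0.0844 CPM, the group mean was 179-fold higher in uninjured Gli1+ cells and 40.3-fold higher in BDL stellate cells. These ratios of means to a floor leave out the spread between libraries. The rise with BDL in stellate cells did not pass (log2 2.13 ± 0.79, limma adjusted p = 0.32). The log2(CPM + 1) scale understates changes at such low levels, and on it the difference in uninjured liver was 3.97 ± 0.79 (SE, limma adjusted p = 0.015), and 3.97 (adjusted p = 0.0335) without replicate 1 of the uninjured stellate cells. It was 1.64 ± 0.79 after BDL (limma adjusted p = 0.309). The call in uninjured liver was lost without replicate 1 of the uninjured Gli1+ cells (limma adjusted p = 0.0609).

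P4ha1 (ENSMUSG00000019916.14, chr10:59323296-59373304, plus strand), the main catalytic subunit in most cells, was lowest in Gli1+ cells after BDL and highest in uninjured stellate cells. Its levels were 161 and 145 CPM in uninjured Gli1+ cells and 104 and 74.9 CPM after BDL. In stellate cells they were 213 and 317 CPM in uninjured liver and 174 and 172 CPM after BDL. No neighbouring groups overlapped in the order uninjured stellate, BDL stellate, uninjured Gli1+, BDL Gli1+, but none of the differences passed. By limma the log2 fold change between Gli1+ and stellate cells was −0.76 ± 0.33 in uninjured liver (adjusted p = 0.196) and −0.96 ± 0.33 after BDL (adjusted p = 0.136). The change with BDL was −0.78 ± 0.33 in Gli1+ cells (limma adjusted p = 0.417) and −0.59 ± 0.33 in stellate cells (adjusted p = 0.538).

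P4ha2 (ENSMUSG00000018906.14, chr11:54100095-54131665, plus strand), the second widely expressed subunit, was at 14.3 to 51.7 CPM over the 8 libraries, with group means of 29.8 ± 4.79 CPM in uninjured and 37.7 ± 19.7 CPM in BDL Gli1+ cells and 29.6 ± 21.7 and 27.2 ± 7.35 CPM in the corresponding stellate groups (SD, n = 2). All 4 groups overlapped. The 95% interval of the log2 difference between the cell types in uninjured liver was −1.26 to 1.67, so neither a higher nor a lower level in Gli1+ cells could be told from these libraries. P4hb, the partner of all 3 subunits, named here for its role and not by the rule for named genes, was at 705 ± 108 and 917 ± 365 CPM in Gli1+ cells and 804 ± 267 and 918 ± 156 CPM in stellate cells (uninjured and BDL, SD, n = 2).

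Per kilobase, P4ha1 made up 63.6% to 79.7% of the summed alpha subunit level in the 4 Gli1+ libraries and 87.3% to 95.8% in the 4 stellate libraries. P4ha3 made up 8.3% to 15.5% in Gli1+ libraries, 0% in uninjured and 2.0% and 2.6% in BDL stellate libraries. The P4ha2 share was 8.6% to 20.9% in Gli1+ and 4.2% to 10.7% in stellate libraries, ranges that overlap. The make-up of the family thus separated the cell types in every library for P4ha1 and P4ha3.

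Of the lysyl hydroxylases, Plod1 was lower in Gli1+ than in stellate cells in both states, and Plod2 and Plod3 did not pass. Plod1 (ENSMUSG00000019055.15, chr4:147909753-147936767, minus strand) hydroxylates lysines of the triple helix. Its levels were 49.4 and 58.4 CPM in uninjured Gli1+ cells and 92.5 and 55.0 CPM after BDL. In stellate cells they were 232 and 218 CPM in uninjured liver and 321 and 173 CPM after BDL. Every stellate library was above every Gli1+ library, and the 2 states overlapped within each cell type. The mean was 4.18-fold lower in Gli1+ cells in uninjured liver (log2 −2.05 ± 0.40, limma adjusted p = 0.0142) and 3.35-fold lower after BDL (log2 −1.71 ± 0.40, limma adjusted p = 0.0389). Without replicate 1 of the uninjured stellate cells the first value was −2.0 (limma adjusted p = 0.0358). That call was lost without either uninjured Gli1+ library (limma adjusted p = 0.085 and 0.0521), and the call after BDL was lost without any one of the uninjured Gli1+, BDL Gli1+ or BDL stellate libraries (limma adjusted p up to 0.305).

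Plod2 (ENSMUSG00000032374.14, chr9:92542223-92608428, plus strand) hydroxylates lysines of the telopeptides, the step that leads to pyridinoline crosslinks, and is a known hypoxia target. It was at 75.0 and 172 CPM in uninjured Gli1+ cells and 239 and 194 CPM after BDL. Stellate cells had 44.3 and 37.2 CPM in uninjured liver and 85.5 and 106 CPM after BDL. Within each state the Gli1+ libraries were above the stellate ones, while the uninjured Gli1+ range included both BDL stellate libraries. Mean levels in Gli1+ cells were 3.03 times those of stellate cells in uninjured liver (log2 1.46 ± 0.43, limma adjusted p = 0.063) and 2.27 times after BDL (log2 1.17 ± 0.43, adjusted p = 0.162). Without replicate 1 of the uninjured Gli1+ cells the first difference passed (limma adjusted p = 0.03), and with all libraries it passed by DESeq2 (log2 1.40, adjusted p = 0.0365) and not by edgeR (adjusted p = 0.114). BDL libraries were above uninjured ones in both cell types, at 1.75 times the mean in Gli1+ cells (log2 0.92 ± 0.43, limma adjusted p = 0.497) and 2.34 times in stellate cells (log2 1.21 ± 0.43, adjusted p = 0.298).

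Plod3 (ENSMUSG00000004846.10, chr5:136987019-136996648, plus strand), which also adds glucose to hydroxylysine-linked galactose, varied most in the uninjured stellate cells, at 16.6 CPM in replicate 1 and 79.7 CPM in replicate 2. The other groups were at 45.6 and 61.2 CPM in uninjured and 70.1 and 64.7 CPM in BDL Gli1+ cells, and at 86.6 and 99.7 CPM in BDL stellate cells. The log2 change with BDL in stellate cells was 1.32 ± 0.63 (limma adjusted p = 0.467). It was 2.42 without replicate 2 of the uninjured group and 0.22 without replicate 1. Between the cell types in uninjured liver the log2 difference was 0.52 ± 0.63 (limma adjusted p = 0.676). That difference was 1.62 without replicate 2 of the uninjured stellate cells and −0.58 without replicate 1. Plod3 shares 529 exon bases with Znhit1 on the opposite strand, and the sources used here give no strand setting for the counting, so reads of the 2 genes may be mixed. Plod2 shares 346 exon bases with Gm38391 on the opposite strand.

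Per kilobase, Plod2 made up 44.4% to 61.5% of the summed lysyl hydroxylase level in Gli1+ libraries and 12.2% to 29.2% in stellate libraries. Plod1 made up 13.9% to 23.3% in Gli1+ and 38.0% to 74.3% in stellate libraries. Plod2 per Plod1 was 1.91 and 3.69 in uninjured and 3.25 and 4.42 in BDL Gli1+ libraries. In stellate cells this ratio was 0.240 and 0.214 in uninjured and 0.334 and 0.767 in BDL libraries. Every Gli1+ library thus had more Plod2 than Plod1 per kilobase, and every stellate library had less.

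**Figure D3:**
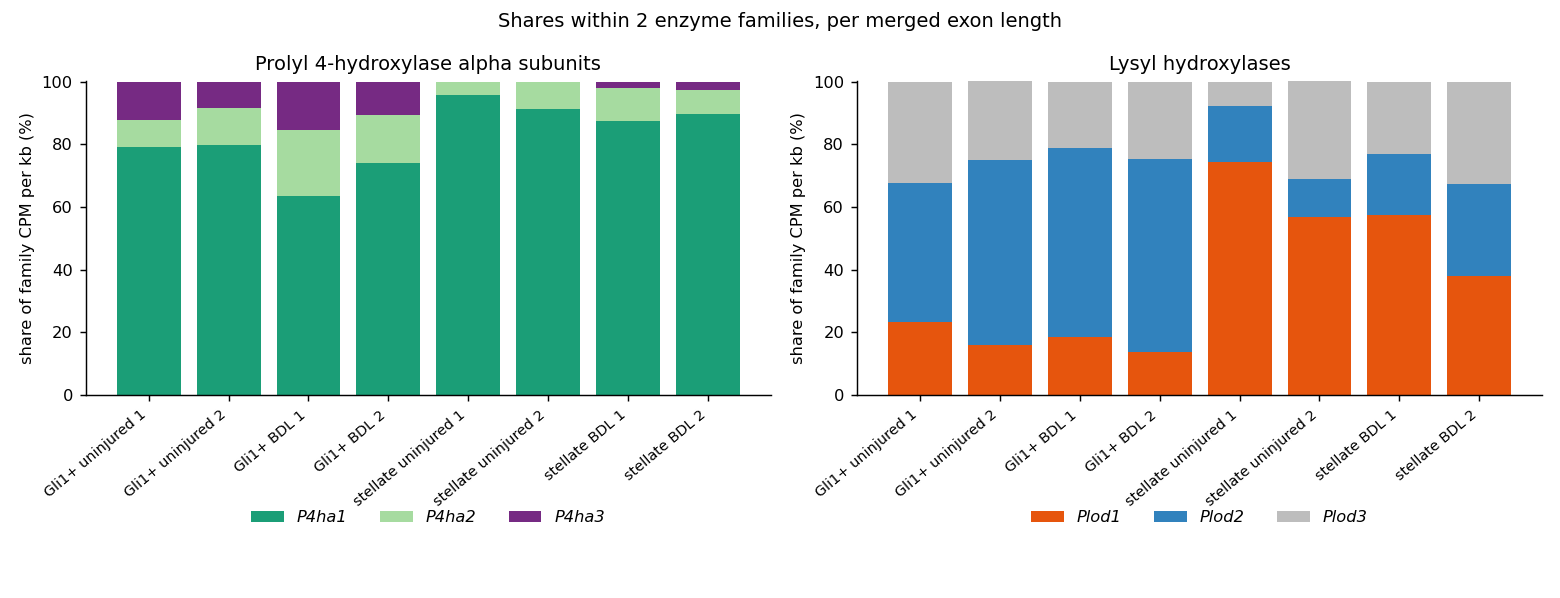
Share of each gene in the summed CPM per kb of its family (vertical axis, percent) in each of the 8 libraries, for the prolyl 4-hydroxylase alpha subunits and the lysyl hydroxylases. Plod2 is the largest share in the 4 Gli1+ libraries (44.4% to 61.5%) and Plod1 in the 4 stellate libraries (38.0% to 74.3%).

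Serpinh1 (ENSMUSG00000070436.12, chr7:99345376-99353239, minus strand), the collagen chaperone, had its lowest levels after BDL in both cell types. It was at 689 and 737 CPM in uninjured Gli1+ cells and 243 and 293 CPM after BDL. Uninjured stellate cells had 575 CPM in replicate 1 and 1593 CPM in replicate 2, and BDL stellate cells 373 and 352 CPM. All BDL libraries were below all uninjured libraries, and the uninjured groups overlapped. The mean was 0.376 times the uninjured mean in Gli1+ cells (log2 −1.41 ± 0.45, limma adjusted p = 0.246) and 0.335 times in stellate cells (log2 −1.40 ± 0.45, adjusted p = 0.258), neither past the threshold. In stellate cells it passed by DESeq2 (log2 −1.78, adjusted p = 0.0193). The log2 change there was −2.13 by limma without replicate 1 of the uninjured group. Over 16 alternatives it ran from −2.13 to −0.66, and 14 of them did not pass. The 95% interval of the difference between the cell types was −1.44 to 0.59 in uninjured liver and −1.46 to 0.57 after BDL on the log2 scale.

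Crtap (ENSMUSG00000032431.6, chr9:114375134-114390675, minus strand), which works with a prolyl 3-hydroxylase and the rotamase cyclophilin B, had group means between 134 ± 1.30 and 180 ± 2.78 CPM (SD, n = 2). It was at 119 and 196 CPM in uninjured and 133 and 135 CPM in BDL Gli1+ cells, and at 109 and 236 CPM in uninjured and 183 and 179 CPM in BDL stellate cells. The uninjured ranges covered the BDL values in both cell types, and after BDL the stellate libraries were above the Gli1+ ones. Its log2 fold changes ran from −0.43 to 0.17 over the comparisons between cell types and states, with limma adjusted p from 0.685 to 0.96.

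At the propeptide step, Bmp1 was higher in Gli1+ cells in uninjured liver, and Pcolce did not pass. Bmp1 (ENSMUSG00000022098.9, chr14:70474558-70520234, minus strand), the procollagen C-proteinase, was at 228 and 120 CPM in uninjured Gli1+ cells and 153 and 108 CPM after BDL. Stellate cells had 42.6 and 51.3 CPM in uninjured liver and 92.3 and 98.1 CPM after BDL. All Gli1+ libraries were above all stellate libraries, and the 2 stellate groups did not overlap. In uninjured liver the mean was 3.70-fold higher in Gli1+ cells (log2 1.80 ± 0.39, limma adjusted p = 0.0217). This call was lost without replicate 1 of the uninjured stellate cells (log2 1.67, limma adjusted p = 0.0547), without replicate 1 of the uninjured Gli1+ cells (adjusted p = 0.111) and without either BDL stellate library (adjusted p = 0.0518 and 0.0517). After BDL the log2 difference was 0.42 ± 0.39 (limma adjusted p = 0.662). Within stellate cells the BDL mean was 2.03 times the uninjured mean (log2 1.01 ± 0.39, limma adjusted p = 0.344).

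Pcolce (ENSMUSG00000029718.14, chr5:137605103-137613784, minus strand), which speeds up Bmp1 cleavage of procollagen, was at 687 and 875 CPM in uninjured Gli1+ cells and 402 and 361 CPM after BDL. It was at 369 CPM in replicate 1 and 890 CPM in replicate 2 of uninjured stellate cells, and at 1035 and 892 CPM after BDL. The 2 cell types thus overlapped in uninjured liver and did not after BDL, where the mean was 0.396 times as high in Gli1+ as in stellate cells (log2 −1.33 ± 0.42, limma adjusted p = 0.105). This difference passed under 4 of 16 alternatives, DESeq2 among them (adjusted p = 0.0364), and 12 did not pass. Leaving out either uninjured stellate library, which is not part of this comparison, left the log2 value at −1.33. With BDL the log2 change was −1.02 ± 0.42 in Gli1+ cells (limma adjusted p = 0.402) and 0.74 ± 0.42 in stellate cells (adjusted p = 0.543). The value in stellate cells ran from 0.11 to 1.38 over 16 alternatives. It was 0.11 without replicate 1 of the uninjured group. Pcolce shares 112 exon bases with Fbxo24 on the same strand and with the antisense gene Gm36266.

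Whether the 10 genes responded differently to BDL in the 2 cell types was tested as an interaction. By limma 2 of all genes passed (0.0122% called), both with a lower response in Gli1+ cells, and none of the 10 did. The differences furthest from 0 were −2.33 ± 1.12 for P4ha3 (limma adjusted p = 0.694), −1.77 ± 0.59 for Pcolce (adjusted p = 0.532) and −1.37 ± 0.56 for Bmp1 (adjusted p = 0.617). For Serpinh1 the difference was −0.02 with a 95% interval of −1.45 to 1.42, and for Plod2 −0.29 with an interval of −1.66 to 1.08. These intervals leave room for responses that differ by more than 2-fold. DESeq2 called the difference for P4ha3 (log2 −8.42, adjusted p = 0.0048), a gene with no reads in 1 of the groups, whose fitted value is no measure of size.

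Other steps of collagen synthesis were described with lists chosen by role. Of the 9 genes of the prolyl 3-hydroxylase complex and the rotamases, P3h4, a partner of Plod1 in helical lysine hydroxylation, was higher in uninjured Gli1+ cells (230 ± 69.6 against 63.0 ± 30.4 CPM, log2 1.91, limma adjusted p = 0.0277), and P3h3, found in the same complex, was lower in Gli1+ cells after BDL (30.5 ± 2.81 against 117 ± 15.4 CPM, log2 −1.90, limma adjusted p = 0.0186). The other 8 did not pass in either case, and the list medians were −0.10 and −0.47. P3h4 did not pass without replicate 1 of the uninjured stellate cells (log2 1.40, limma adjusted p = 0.0792). None of the 8 disulfide isomerases and chaperones passed, the highest being Pdia3 (1458 ± 225 and 1984 ± 450 CPM in uninjured Gli1+ and stellate cells) and Hspa5 (1011 ± 156 and 1598 ± 1064 CPM). Neither of the 2 collagen galactosyltransferases passed, with Colgalt1 at 97.1 ± 8.73 and 114 ± 30.9 CPM and Colgalt2 at 6.20 ± 1.73 and 3.60 ± 5.01 CPM. None of the 11 export genes did, with Kdelr2 at 584 ± 149 and 496 ± 85.2 CPM and Sar1a at 257 ± 83.2 and 253 ± 134 CPM (SD, n = 2).

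In the list of propeptide proteinases and enhancers, 1 gene differed in RNA level between the cell types. Adamts14, a procollagen N-proteinase, was at 0.827 ± 1.17 CPM in uninjured Gli1+ and 62.8 ± 7.59 CPM in uninjured stellate cells (log2 −5.29, limma adjusted p = 0.00262, and −5.16 and 0.00965 without replicate 1 of the latter). After BDL it was at 4.82 ± 2.08 and 66.2 ± 13.1 CPM (log2 −3.56, limma adjusted p = 0.0202). It was the only one of the 5 tested genes of its list to pass in either state, and Tll2 was below the filter. The list medians were 0.20 and −0.19.

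Several of the collagen chains themselves were higher in Gli1+ cells. In uninjured liver 4 of 7 tested fibrillar chains passed, all higher: Col1a1 (2493 ± 463 against 266 ± 112 CPM, limma adjusted p = 0.0023), Col5a2 (log2 2.89, adjusted p = 0.00606), Col1a2 (log2 1.95, adjusted p = 0.011) and Col3a1 (log2 2.21, adjusted p = 0.0175). Col3a1 did not pass without replicate 1 of the uninjured stellate cells (log2 1.84, limma adjusted p = 0.0719), where the other 3 did, nor without either uninjured Gli1+ library (limma adjusted p = 0.0962 and 0.0638). After BDL Col1a1 (4998 ± 74.9 against 1412 ± 598 CPM, limma adjusted p = 0.0334) and Col11a1 (log2 3.88, adjusted p = 0.0394) passed, and the list median was 1.95 in uninjured liver and 1.17 after BDL. The call on Col11a1 was lost without any one of the BDL libraries (limma adjusted p = 0.12 to 0.234). Col1a1 after BDL did not pass under TMM scaling (limma adjusted p = 0.0601) or by edgeR (adjusted p = 0.14). In all it passed under 6 of 16 alternatives. Col2a1 and Col11a2 were below the filter. Of 16 hypoxia-inducible genes, Car9, Egln3, Vegfa and Ndrg1 were higher in uninjured Gli1+ cells and none lower, with a list median of 1.0, and Vegfa did not pass without replicate 1 of the uninjured stellate cells (limma adjusted p = 0.0967). Over all genes 8.06% passed higher and 3.02% lower in uninjured Gli1+ cells, with a median of 0.32. Ndrg1 was at 290 ± 48.1 against 27.6 ± 3.15 CPM (limma adjusted p = 0.000651) and Car9, a carbonic anhydrase, at 187 and 151 CPM against 14.6 and 0 CPM (adjusted p = 0.0224). Without replicate 1 of the uninjured stellate cells the log2 difference of Car9 went from 5.42 to 7.40 (limma adjusted p = 0.00173), and it did not pass by edgeR (adjusted p = 0.178), by DESeq2 (adjusted p = 0.149) or without either uninjured Gli1+ library (limma adjusted p = 0.128 and 0.0963). After BDL Car9 and Egln3 were higher and Adm lower (24.2 ± 1.65 against 217 ± 83.8 CPM, limma adjusted p = 0.00238), with a median of 0.80. Of all genes 4.44% passed higher and 2.36% lower there, with a median of 0.23. Within a cell type, no gene of the 7 lists passed, although Col1a1 was at 2493 and 4998 CPM in uninjured and BDL Gli1+ cells and at 266 and 1412 CPM in stellate cells (limma adjusted p = 0.422 and 0.0932).

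**Figure D4:**
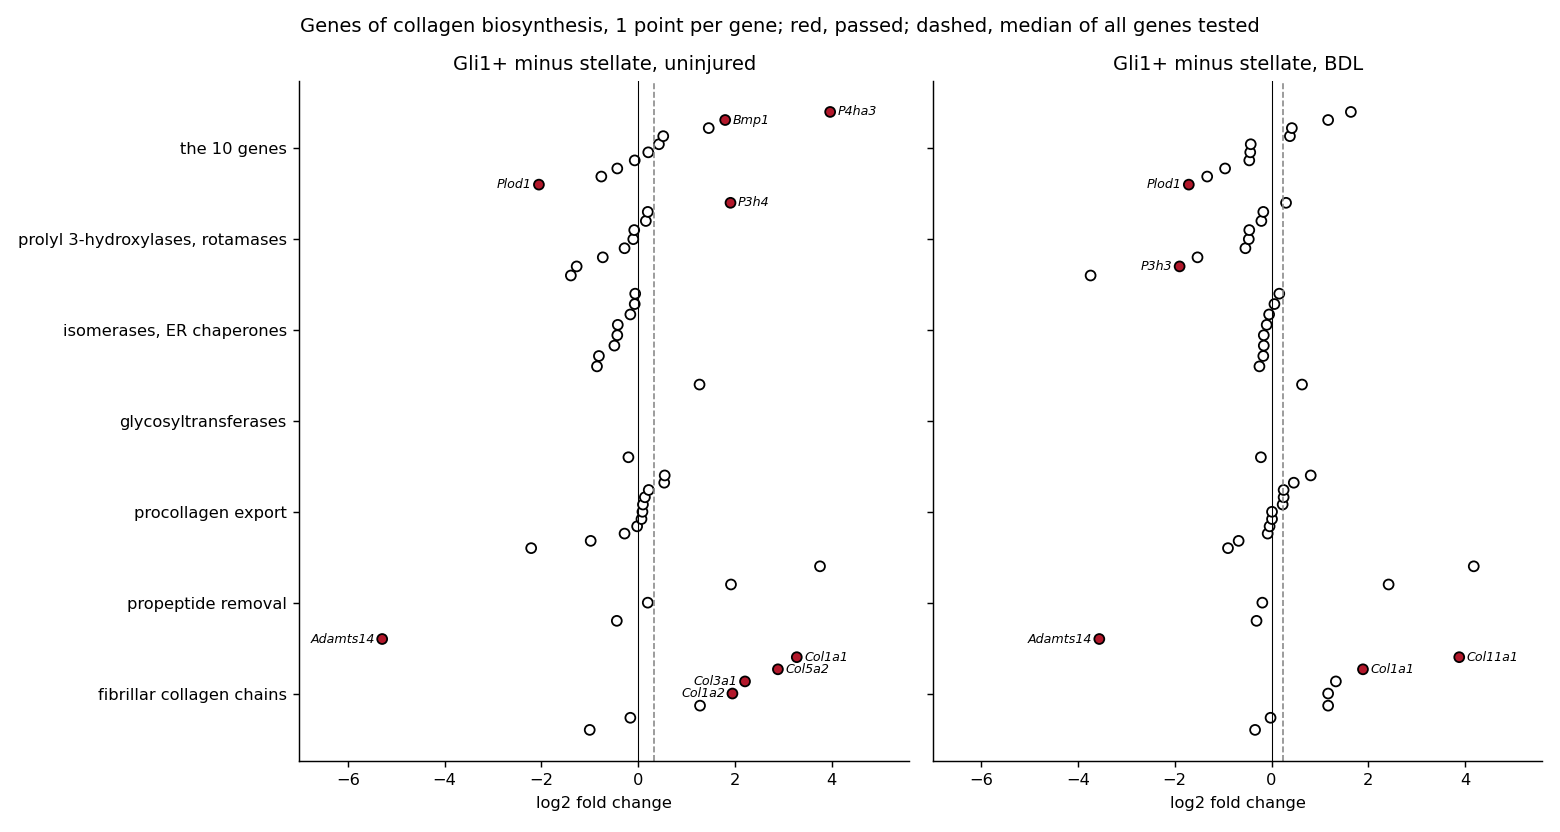
Log2 fold change between Gli1+ and stellate cells (horizontal axis, log2(CPM + 1) scale) for the 10 genes and 6 lists of other collagen synthesis genes, 1 point per gene, in uninjured liver and after BDL; red points passed the threshold and the dashed line is the median of all genes tested (0.32 and 0.23). The fibrillar chains lie mostly to the right, and Plod1 and Adamts14 passed on the left in both states.

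Each processing gene was also set against the summed reads of Col1a1, Col1a2 and Col3a1, as a description with no test. These 3 chains summed to 10454 and 8495 CPM in uninjured and 14367 and 15277 CPM in BDL Gli1+ cells, and to 1440 and 2360 CPM in uninjured and 4079 and 7614 CPM in BDL stellate cells. Serpinh1 had 65.9 and 86.7 reads per 1000 collagen reads in uninjured and 16.9 and 19.2 in BDL Gli1+ cells. In stellate cells it had 399 and 675 in uninjured and 91.5 and 46.3 in BDL libraries. Both cell types had fewer Serpinh1 reads per collagen read after BDL, and each uninjured stellate library had more than any other library.

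The 10 genes together had 201 and 283 reads per 1000 collagen reads in uninjured and 105 and 86.2 in BDL Gli1+ cells, against 1123 and 1469 in uninjured and 585 and 275 in BDL stellate cells. The summed level of the 10 genes was 1317 to 3467 CPM over all 8 libraries, and it overlapped between the cell types, while the summed level of the 3 chains did not. Plod2 was at 7.18 to 20.2 reads per 1000 in Gli1+ and 13.9 to 30.8 in stellate libraries, ranges that overlap. For P4ha1 the values were 4.90 to 17.0 in Gli1+ and 22.5 to 148 in stellate libraries, and for Plod1 3.60 to 6.87 and 22.7 to 161. Pcolce had 23.6 to 103 in Gli1+ and 117 to 377 in stellate libraries.

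**Figure D5:**
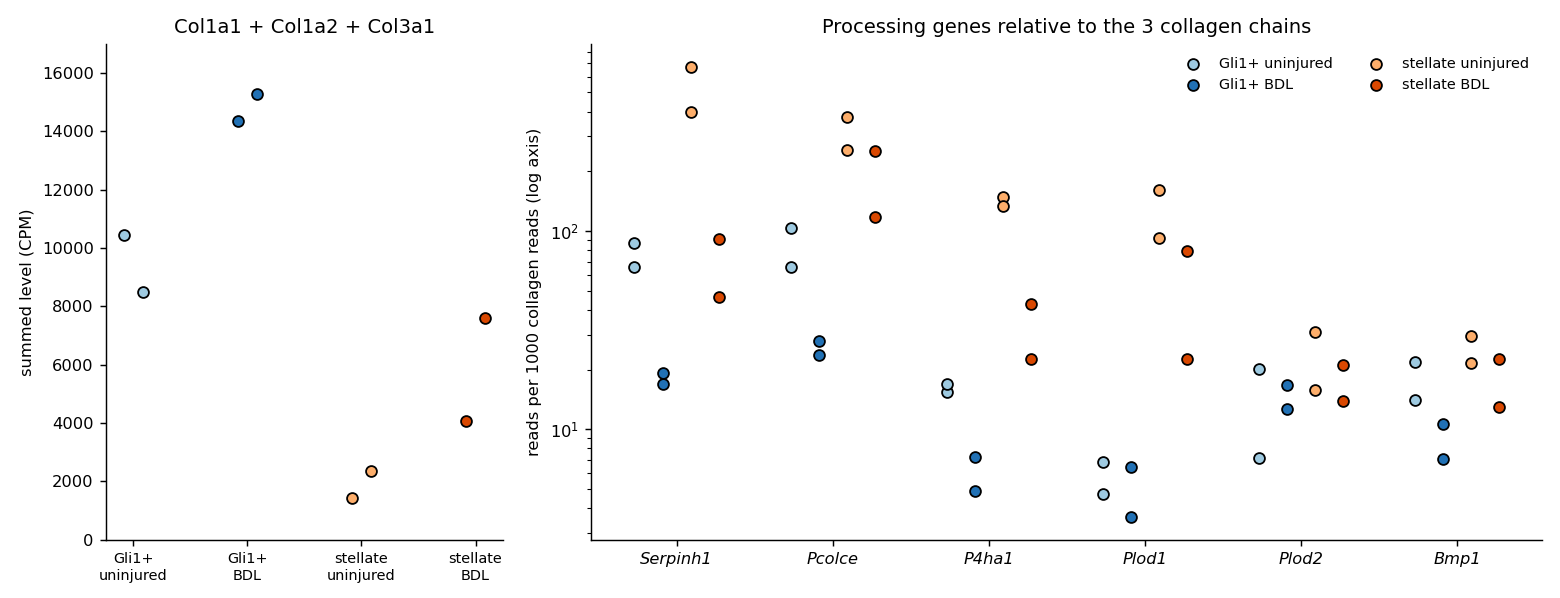
Left, summed CPM of Col1a1, Col1a2 and Col3a1 in the 8 libraries; right, reads of 6 processing genes per 1000 reads of these chains (logarithmic axis), 1 point per library, coloured by group. For Serpinh1 the BDL points lie below the uninjured points of the same cell type, and for Plod1 and P4ha1 the stellate points lie above the Gli1+ points.

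For each of the 10 genes, the genes with the most similar pattern were found among 10288 genes of at least 10 CPM on average, by the root mean square difference of centred log2(CPM + 1) values over the 8 libraries. The closest was Arhgdia for P4ha1 (0.11), followed by Mcmbp and Pcnp. For Serpinh1 it was Enpp5 (0.15), which was at 129 and 44.9 CPM in uninjured and BDL Gli1+ cells and 198 and 78.8 CPM in the stellate groups. Plod2 was closest to Pabpc1 (0.16), Pcolce to Polr3gl (0.15), Crtap to Fam208a (0.15), P4ha2 to Immt (0.17) and Bmp1 to Cltb (0.18). Plod3 was closest to Atl3 (0.23). The least close matches were those of Plod1, with Sgms1 (0.29), and P4ha3, with Ammecr1 (0.44). Efemp2 (0.33) was also close for Plod1, and Fam198b and Plxdc2 (both 0.46) for P4ha3. None of the closest genes named here is one of the collagen synthesis genes in the lists above.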

How the data were processed

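For each library the authors deposited 1 column of CPM, reads scaled to a total of 1000000, headed as normalized counts. Per the submitters' processing notes, STAR 2.5.2b, featureCounts, DESeq2 and FastQC were used with mm10, in roles that are not stated. The sources used here give no annotation release, no strand setting and no rule for multiply matching reads. SMART-Seq2, the library method per the labels' protocols, amplifies cDNA by PCR without molecular identifiers, so intervals and floors cover counting error only. All values (100.0%) were whole multiples, within 0.1 read, of the value of 1 read, so whole reads and library totals were recovered.

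Ensembl identifiers were matched to GENCODE vM21 for symbols, coordinates and merged exon lengths (30233 of 30395 matched). Groups and replicate numbers came from the labels. The main test was limma 3.58.1 (trend) in R 4.3.3 on log2(CPM + 1) over all 8 libraries with 4 group means and no block (4 residual degrees of freedom), for the 16446 genes that reached 1 CPM in 2 or more libraries, with Benjamini-Hochberg adjustment over all of them and a threshold of 0.05. The recovered reads were tested with edgeR 4.0.16 and DESeq2 1.42.0 as alternatives. Other alternatives were TMM scaling, a pseudocount of 0.25, a minimum of 5 CPM, no minimum, only the 4 libraries compared, the replicate number as a block, and each library left out. The script was tested on simulated data.

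The 10 genes, the lists of other collagen synthesis genes and the marker lists were chosen with earlier results of these data known. All 10 genes were named in every comparison. Of each list, the genes that passed were named, up to 4 in a direction, or otherwise the 2 of highest mean CPM, and for likeness up to 3 genes per member. The alternatives for list genes were chosen after seeing which had passed.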

Additional observations from a re-analysis of the deposited data

How the results depend on the processing

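Of the calls on the 10 genes, P4ha3 in uninjured liver passed under 13 of 16 alternatives, with limma, edgeR or DESeq2 adjusted p from 2.16e-07 to 0.116. Plod1 passed under 12 of 16 in uninjured liver (2.79e-05 to 0.116) and 8 of 16 after BDL (0.0013 to 0.305), and Bmp1 under 10 of 16 (0.00387 to 0.158). No value of these 4 changed sign, edgeR and DESeq2 called all 4, and none of the 4 passed without a filter (adjusted p 0.0561 to 0.101) or with only the 4 libraries compared (0.0623 to 0.158). Plod2 in uninjured liver passed by DESeq2 and at a minimum of 5 CPM, where 4 of the 10 genes did. Of 16 alternatives in uninjured liver, Adamts14, Col1a1, Col5a2, Egln3 and Ndrg1 each passed under 15, Col1a2 under 12, Col3a1 and Car9 under 10, and P3h4 and Vegfa under 7. After BDL Adm passed under 16, P3h3 and Egln3 under 12, Adamts14 under 10, Col11a1 under 8, Car9 under 7 and Col1a1 under 6. With 4 residual degrees of freedom in all and 2 in a fit of 4 libraries, counts moved widely. Between the cell types in uninjured liver 1822 genes became 810 without a filter, 0 with the 4 libraries, 2996 by DESeq2 and 1022 to 1808 with a library left out, and the 3 of the 10 genes became 0 without a filter, 0 with the 4 libraries and 1 to 4 with a library left out. After BDL 1118 genes became 621 by edgeR and 145 to 1375 with a library left out, and the 1 of the 10 became 0 without a filter, 2 by DESeq2 and 0 to 2 with a library left out. In Gli1+ cells the 0 genes that changed with BDL became 127 without a filter, 3 at 5 CPM, 412 by DESeq2 and 0 to 5 with a library left out. In stellate cells 37 became 23 under TMM scaling, 6 without a filter, 0 with the 4 libraries, 62 by edgeR, 1023 by DESeq2 and 0 to 219 with a library left out, with 2 of the 10 genes by DESeq2 and 0 to 1 with a library left out. The 2 genes whose response differed became 0 without a filter, 11 by edgeR, 389 by DESeq2 (1 of the 10) and 0 to 33 with a library left out. Fewer libraries or more genes tested are part of how the first 2 of these settings are built, and the cause of the other moves was not tested. The labels do not say whether same-numbered libraries of different groups belong together. Deviations of same-numbered libraries correlated between −0.16 and 0.15, which cannot decide this with 2 libraries per group. With the replicate number as a block, 1566 genes and 3 of the 10 passed in uninjured liver, 943 and 1 after BDL, 0 in Gli1+ cells, 18 in stellate cells and 0 for the difference of responses.

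Each value that turned sign was of a gene that had not passed in the comparison in question. For the cell types in uninjured liver the log2 fold change of P4ha2 was −0.02 under TMM scaling, −0.26 by edgeR and −0.23 by DESeq2, and that of Plod3 −0.13 and −0.10 by the latter tools. For BDL in stellate cells P4ha2 was at −0.05, −0.28 and −0.32 by the same 3, Plod1 at −0.05 under TMM scaling and −0.03 by DESeq2, and Crtap at −0.08 by edgeR and −0.13 by DESeq2. The difference of responses of Serpinh1 was 0.05 under TMM scaling, 0.28 by edgeR and 0.30 by DESeq2. With 1 library left out, the log2 fold changes for the cell types in uninjured liver ran, for Crtap, from −0.63 to 0.48, P4ha2 from −0.59 to 1.0, Plod3 from −0.58 to 1.62, Pcolce from −0.20 to 1.07 and Serpinh1 from −1.16 to 0.31. For the cell types after BDL, P4ha2 ran from −0.16 to 0.93. For BDL in Gli1+ cells, P4ha3 ran from −0.77 to 0.37, Bmp1 from −0.83 to 0.10, Crtap from −0.54 to 0.17 and P4ha2 from −0.30 to 0.78. For BDL in stellate cells, P4ha2 ran from −0.73 to 0.86, Crtap from −0.38 to 0.72 and Plod1 from −0.38 to 0.51. For the difference of responses, Plod2 ran from −0.88 to 0.30, Serpinh1 from −0.75 to 0.72, P4ha2 from −0.62 to 0.97, Plod1 from −0.11 to 0.78, P4ha1 from −0.48 to 0.09, Plod3 from −2.07 to 0.13 and Crtap from −0.91 to 0.20. At these depths 3 reads are 0.156 to 0.266 CPM, which limits P4ha3 in stellate cells and no other of the 10 genes.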
